A study of Mus musculus with 24 samples.

Results

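The 12 libraries described here, of 24 in the series, are the unstimulated bone marrow macrophages of MK2 knockout mice (6 libraries) and of MK2 wild-type mice (6 libraries), taken by the genotype and state in their titles. MK2 is MAPKAP kinase 2, the product of Mapkapk2. All animals were C57BL/6N. Marrow cells of both genotypes were grown in medium with 10 ng/ml M-CSF and replated on day 7, and the cells used here were harvested 24 h later with no further agent. The other 12 libraries are the same genotypes given interleukin-4 (IL-4, 10 ng/ml), and they entered the fit as further groups. The labels give neither the age or sex of the animals nor the part of Mapkapk2 that was deleted. They do not say whether the replicates were separate animals, so the spread behind each p-value is that between libraries and may be technical.

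MK2 is a serine/threonine kinase that the stress-activated kinase p38 alpha phosphorylates and holds in a complex. It phosphorylates proteins that bind AU-rich elements, such as tristetraprolin (Zfp36), and the small heat shock protein Hspb1, and in macrophages it is best known for permitting production of tumour necrosis factor and other cytokines after inflammatory stimulation. Resting macrophages grown in M-CSF show little of that cytokine programme, so the comparison asks what loss of the kinase leaves changed at baseline. Marrow cultures also carry adherent stromal cells, the fibroblast-like cells that make collagen and CXCL12, and their transcripts are given apart from those of macrophages.

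Levels are CPM, counts scaled to library size and TMM factors. Total counts ran from 8127775 to 12121678 per library. Genes that define macrophages were high in every library: the colony-stimulating factor receptor gene Csf1r was 843 to 1266 CPM (median 959.8) in wild type, against 1065 to 1209 (median 1141) in knockout, and Adgre1, which encodes F4/80, was 808 to 1239 CPM (median 1065) in wild type, against 1099.9 to 1281 (median 1228) in knockout. Wild-type replicates 1 and 4 stood apart from the rest on the first principal component (27.7% of the variance), and 7.52% and 5.08% of their counts came from mitochondrial genes, against 2.48% to 3.17% in the other wild-type and 2.96% to 5.0% in the knockout libraries. Replicates 1 to 3 and 4 to 6 also differ in the run of library numbers in the labels, and wild-type replicate 3 has a number outside both runs.

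Mapkapk2 (chromosome 1, 131053700 to 131097826 on mm10, minus strand) checked the labels. It was 100.3 to 138 CPM (median 117) in wild type, against 54.7 to 63.4 (median 58.7) in knockout, and the groups did not overlap. The transcript was lower but not absent (log2 fold change -1.01 ± 0.07 SE, edgeR adjusted p = 1.33e-10). Reads from a part of the gene that was not deleted cannot be told apart from full-length transcript. Its closest relative Mapkapk3, which p38 also activates, was 39.5 to 49.1 CPM (median 43.5) in wild type, against 40.2 to 47.6 (median 46) in knockout, and missed the threshold (log2 fold change 0.02 ± 0.12 SE, edgeR adjusted p = 0.955). The gene for p38 alpha itself, Mapk14, was 116 ± 12.5 CPM in wild type, against 118 ± 4.03 in knockout (SD, n = 6; log2 fold change 0.02 ± 0.06 SE, edgeR adjusted p = 0.919).

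Of 19 tested genes of the p38 and MK2 pathway, only Mapkapk2 fell and only Dusp4 rose, beside 3.42% of all genes tested that fell and 1.1% that rose (list median log2 fold change 0.04). Dusp4, a nuclear phosphatase that removes phosphate from MAP kinases, was 9.79 to 22 CPM (median 16.7) in wild type, against 23 to 29.6 (median 25.4) in knockout. Every knockout library lay above every wild-type one (log2 fold change 0.64 ± 0.15 SE, edgeR adjusted p = 0.00849), and Dusp4 was also higher in knockout with IL-4 at a log2 fold change of 0.81 (edgeR adjusted p = 2.20e-04). Among 14 tested MK2 substrates and AU-rich binding proteins, 1 rose, the actin-binding leukocyte protein gene Lsp1, and 0 fell. Zfp36 was 88 to 131 CPM (median 101) in wild type, against 87.1 to 92.1 (median 91) in knockout, and its difference missed the threshold (log2 fold change -0.19 ± 0.09 SE, edgeR adjusted p = 0.292). In replicates 1 to 3 alone its log2 fold change was -0.34 and in replicates 4 to 6 alone 0.01. Hspb1 was at or under 1.18 CPM in every library and was not tested.

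Of 12797 genes tested, 579 differed at an adjusted p below 0.05 (4.52%), 141 higher in knockout (1.1%) and 438 lower (3.42%), by edgeR's quasi-likelihood test. These shares are the background for the list counts that follow. The rises were small (median 0.45 on the log2 scale, 15 of them 1 or more), while 245 of the falls were that large. In 445 genes (3.48%) the groups did not overlap, among them 83 of the genes that rose and 287 of those that fell. The genes that fell divide into 73 on lists of stromal transcripts, 167 on no such list that stayed at 5 CPM or more in every knockout library, and 198 on no such list that were under 5 CPM in at least 1 knockout library. In the plot of difference against level the stromal transcripts lie among low genes with large falls. They share that zone with many of the 198, whose median log2 fold change was -1.78.

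**Figure D1:**
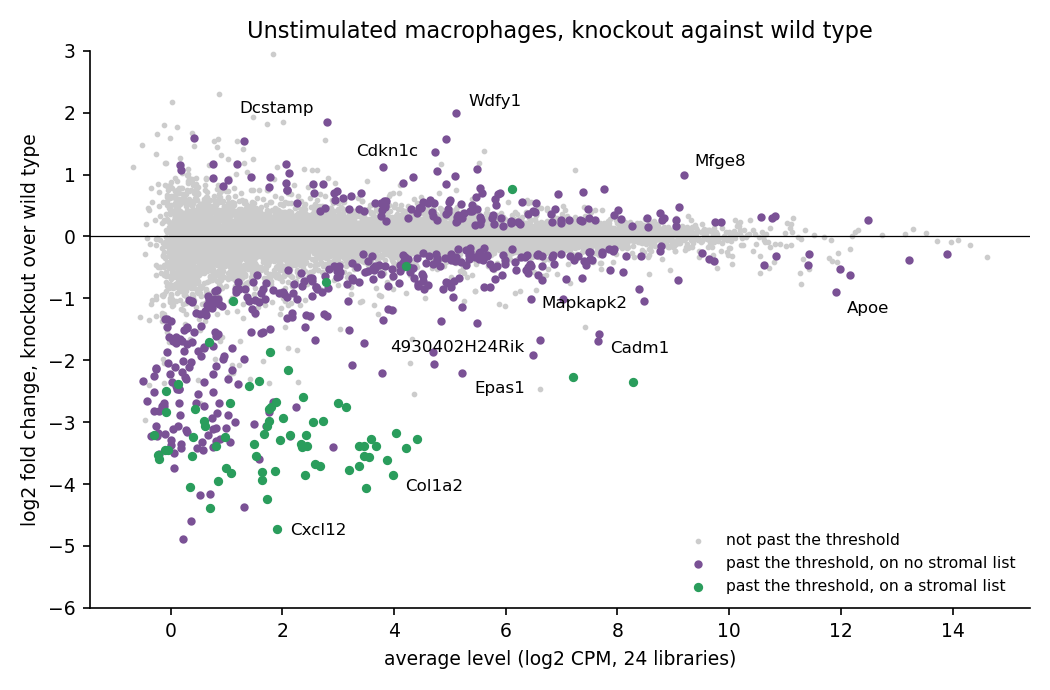
Each point is a gene, with its average level over 24 libraries (log2 CPM) on the x axis and its log2 fold change in unstimulated knockout over wild type on the y axis; coloured points are past an adjusted p of 0.05 and green ones are on a stromal list. The green points lie near -3 at low levels, with Col18a1 alone above 0. The 167 falling genes off the stromal lists that stayed at 5 CPM or more in knockout are centred at -0.46. The 198 other falling genes off the stromal lists have a median of -1.78, and 9 genes lie outside the plotted range.

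Stromal transcripts were lower in knockout on all 6 lists. Of 128 listed genes 86 passed the count filter, and of these 73 fell, 1 rose and 12 did not pass the test. Their median log2 fold change was -3.19, beside -0.01 over all genes tested, and in 72 the groups did not overlap. The summed level of the 128 genes was 1376 to 2120.3 CPM in wild-type and 667 to 865 CPM in knockout libraries. That sum includes listed genes that did not fall, such as Tpm1, Col18a1 and Kitl. It also includes Thbs1 and Fn1, which macrophages make too, so it does not measure stromal RNA alone. A listed gene that is near 0 in knockout could pass the count filter only through wild type, so the members tested are not all members. In bulk RNA, fewer stromal cells and less of these transcripts in each stromal cell cannot be told apart.

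Collagen genes gave 1 higher and 13 lower of 15 tested, and their log2 fold changes had a median of -3.19. Col1a2, the second chain of type I collagen, was 20.6 to 41.6 CPM (median 26.4) in wild type, against 0.842 to 4.76 (median 1.81) in knockout, or 4.76, 1.3, 1.82, 1.81, 1.87 and 0.842 CPM in knockout replicates 1 to 6. The lowest wild-type library lay above the highest knockout library, which was replicate 1 (log2 fold change -3.85 ± 0.31 SE, edgeR adjusted p = 4.01e-09). Its partner chain Col1a1 was 13.4 to 27.5 CPM (median 18) in wild type, against 0.504 to 3.94 (median 1.29) in knockout, and Col3a1, of the fibrillar collagen found with it, was 5.3 to 7.28 CPM (median 6.0) in wild type, against 0.10 to 1.1 (median 0.333) in knockout. Neither gene overlapped between the groups. Col12a1, a collagen that sits on fibril surfaces, showed the largest difference of the collagens (log2 fold change -4.07 ± 0.24 SE, edgeR adjusted p = 3.70e-12). Col4a1, of basement membranes, fell from 17.7 ± 1.73 CPM to 2.62 ± 0.414 CPM (SD, n = 6; log2 fold change -2.76 ± 0.11 SE, edgeR adjusted p = 1.15e-15). Col18a1 went the other way, at 35.6 to 72.2 CPM (median 56.3) in wild type, against 70.6 to 122 (median 101) in knockout. Its rise (log2 fold change 0.77 ± 0.21 SE, edgeR adjusted p = 0.0362) was lost without any of 8 single libraries: wild-type replicates 1, 2, 4 and 6 and knockout replicates 1, 2, 3 and 6.

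Genes for matrix assembly and crosslinking gave 0 higher and 26 lower of 30 tested, and their log2 fold changes had a median of -3.11. Bgn, the proteoglycan biglycan, was 22.1 to 47.8 CPM (median 30.5) in wild type, against 1.71 to 4.64 (median 2.11) in knockout, and Aebp1, a collagen-binding protein, was 9.56 to 17.3 CPM (median 13.2) in wild type, against 0.605 to 1.56 (median 0.911) in knockout. The collagen crosslinking enzyme gene Loxl2 was 12 ± 2.16 CPM in wild type, against 0.945 ± 0.454 in knockout (SD, n = 6; log2 fold change -3.67 ± 0.28 SE, edgeR adjusted p = 3.90e-10). All of these were separate between the groups. Lama4, a laminin chain, had the lowest log2 fold change of this list (log2 fold change -4.39 ± 0.44 SE, edgeR adjusted p = 5.50e-08) at 2.33 to 3.64 CPM (median 2.62) in wild type, against 0 to 0.348 (median 0.0876) in knockout. Fn1, fibronectin, is also made by macrophages and is counted on the matricellular list below, not on this one. It stayed well above 0 in knockout: it was 59.7 to 133 CPM (median 109) in wild type, against 13 to 30.8 (median 22.1) in knockout (log2 fold change -2.27 ± 0.30 SE, edgeR adjusted p = 1.54e-05).

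All 7 tested matricellular genes, whose products act on cells from within the matrix, fell (median log2 fold change -3.25). Cyr61 and Ctgf, secreted regulators of adhesion, both fell. Cyr61 was 8.52 to 15.3 CPM (median 11.1) in wild type, against 0.542 to 1.39 (median 0.721) in knockout, and Ctgf was 21.1 to 33.6 CPM (median 24.8) in wild type, against 1.17 to 3.36 (median 2.08) in knockout. Neither overlapped between the groups (log2 fold change -3.85 ± 0.22 SE, edgeR adjusted p = 2.26e-12 for Cyr61). Tnc, tenascin C, was 11.9 to 21.9 CPM (median 18.3) in wild type, against 0.706 to 2.9 (median 1.05) in knockout. Thbs1, thrombospondin 1, is also made by macrophages. It was 300.3, 222, 424, 624, 598 and 648 CPM in wild-type replicates 1 to 6 and 69.7 to 119.7 CPM in knockout, and its log2 fold change was -1.54 in replicates 1 to 3 and -3.01 in replicates 4 to 6. The fall of Thbs1 (log2 fold change -2.36 ± 0.37 SE, edgeR adjusted p = 2.04e-04) did not pass the test in replicates 1 to 3 alone (edgeR adjusted p = 0.169).

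Contractile and mural cell genes gave 0 higher and 8 lower of 11 tested, and their log2 fold changes had a median of -2.97. Acta2, smooth muscle actin, was 22.9 to 33.4 CPM (median 26.5) in wild type, against 1.21 to 4.99 (median 2.32) in knockout (log2 fold change -3.39 ± 0.22 SE, edgeR adjusted p = 3.06e-11), and Myl9, a myosin light chain of smooth muscle, was 3.45 to 5.15 CPM (median 3.81) in wild type, against 0.101 to 0.481 (median 0.274) in knockout (log2 fold change -3.74 ± 0.33 SE, edgeR adjusted p = 6.04e-09). Tagln, transgelin, was 13.6 ± 3.02 CPM in wild type, against 1.74 ± 0.70 in knockout (SD, n = 6). The tropomyosin gene Tpm1 was 112 to 151 CPM (median 129) in wild type, against 126 to 143 (median 129.7) in knockout. Neither it nor the LIM protein gene Csrp1 passed the test, with log2 fold changes of 0.02 and 0.05.

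Receptors and transcription factors of stromal cells gave 0 higher and 12 lower of 13 tested, and their log2 fold changes had a median of -3.40. The platelet-derived growth factor receptor genes Pdgfra and Pdgfrb, which mark fibroblasts and mural cells, both fell. Pdgfra was 2.36 to 4.77 CPM (median 3.49) in wild type, against 0.085 to 0.464 (median 0.211) in knockout, and Pdgfrb was 3.01 to 5.38 CPM (median 3.38) in wild type, against 0.101 to 0.928 (median 0.22) in knockout, with no overlap in either. Cdh11, the cadherin of mesenchymal cells, was 6.24 to 14.9 CPM (median 10.6) in wild type, against 0.34 to 2.09 (median 0.794) in knockout (log2 fold change -3.40 ± 0.34 SE, edgeR adjusted p = 7.93e-08), and Prrx1, a homeobox factor of limb and marrow mesenchyme, was 4.61 to 8.23 CPM (median 6.11) in wild type, against 0.481 to 1.62 (median 0.60) in knockout. Cyp1b1, a cytochrome P450, fell in both sets of replicates but by different amounts: its log2 fold change was -2.80 in replicates 1 to 3 and -4.48 in replicates 4 to 6 (adjusted p of the difference = 0.0449, edgeR).

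Factors that stromal cells secrete gave 0 higher and 8 lower of 11 tested, and their log2 fold changes had a median of -3.06. Cxcl12, the chemokine that retains blood-forming cells in marrow, was 5.27, 6.01, 5.86, 7.18, 9.92 and 7.83 CPM in wild-type and 0.58, 0.30, 0.202, 0, 0.34 and 0.12 CPM in knockout replicates 1 to 6. Its fall (log2 fold change -4.73 ± 0.38 SE, edgeR adjusted p = 1.24e-09) was the largest on this list, and the groups were far apart. Grem1, an antagonist of bone morphogenetic proteins, was 16 to 28.9 CPM (median 20.8) in wild type, against 0.935 to 4.99 (median 1.97) in knockout, with knockout replicate 1 the highest of its group. Kitl, the ligand of Kit and also a stromal product, did not follow: it was 21.1 to 29.4 CPM (median 27.2) in wild type, against 21.9 to 36.3 (median 30.2) in knockout, and missed the threshold (log2 fold change 0.19 ± 0.15 SE, edgeR adjusted p = 0.607).

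Because the stromal genes fell together, the 250 bases upstream of the start are shown for 1 member each of the collagen, matricellular and secreted lists, from RefSeq on GRCm38.p6, 5′ to 3′. They are Col1a2 (chr6:4505368-4505617, plus strand), Cyr61, named Ccn1 in RefSeq (chr3:145649986-145650235, minus strand), and Cxcl12 (chr6:117168285-117168534, plus strand). Capitals mark the letters CCAAT and CATTCC, searched on both strands.
Col1a2: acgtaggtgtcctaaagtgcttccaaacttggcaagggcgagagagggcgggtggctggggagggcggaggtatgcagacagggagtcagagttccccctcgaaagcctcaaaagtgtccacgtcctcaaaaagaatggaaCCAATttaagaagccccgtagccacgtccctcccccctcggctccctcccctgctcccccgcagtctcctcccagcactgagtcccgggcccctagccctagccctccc
Cyr61: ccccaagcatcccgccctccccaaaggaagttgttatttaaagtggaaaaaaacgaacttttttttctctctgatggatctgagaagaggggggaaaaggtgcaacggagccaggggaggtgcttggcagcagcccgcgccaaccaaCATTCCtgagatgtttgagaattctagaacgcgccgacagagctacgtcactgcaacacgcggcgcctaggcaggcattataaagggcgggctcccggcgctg
Cxcl12: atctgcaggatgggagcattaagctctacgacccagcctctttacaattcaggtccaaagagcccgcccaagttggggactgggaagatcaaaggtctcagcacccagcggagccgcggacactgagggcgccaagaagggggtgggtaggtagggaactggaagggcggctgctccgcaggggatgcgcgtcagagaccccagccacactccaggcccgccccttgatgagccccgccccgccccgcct
CCAAT begins 109 bases upstream of the start in Col1a2, CATTCC begins 103 bases upstream in Cyr61, and neither run of letters is in the Cxcl12 window. CCAAT was in 34.5% of the windows of all 27025 genes with an entry and in 29 of 84 windows of stromal list genes (34.5%). CATTCC was in 12.6% of all windows and in 13 of the 84 (15.5%). A match describes the letters and is not a binding site.

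**Figure D2:**
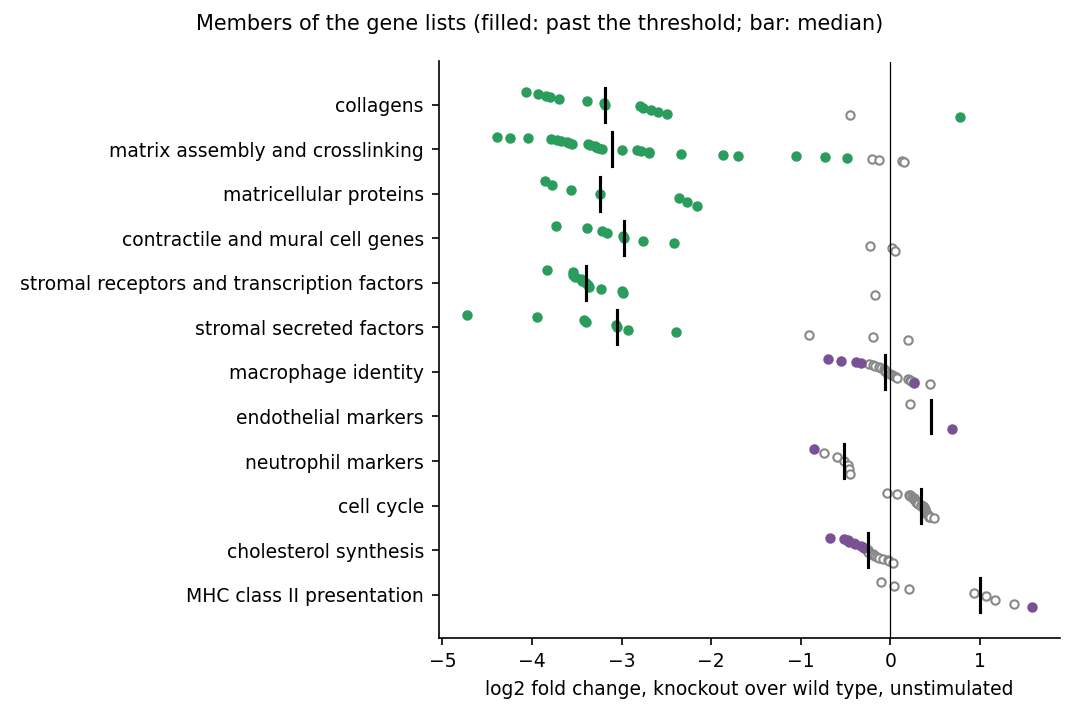
Each point is a tested gene of the list named on the y axis, placed by its log2 fold change in unstimulated knockout over wild type; filled points are past an adjusted p of 0.05 and bars are list medians. The medians of the 6 stromal lists lie between -3.40 and -2.97, and those of the macrophage identity and cholesterol lists at -0.05 and -0.25.

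Markers of other cells that marrow cultures can hold were counted beside the stromal lists. Of 13 endothelial genes 2 passed the count filter, and 1 of them, Vwf, rose. Vwf encodes von Willebrand factor, and it was 45.3 to 63 CPM (median 54.6) in wild type, against 80.8 to 92.1 (median 89.4) in knockout, with no overlap (log2 fold change 0.69 ± 0.10 SE, edgeR adjusted p = 3.88e-05). The receptor gene Kdr was 3.26 to 5.24 CPM (median 4.38) in wild type, against 3.6 to 6.71 (median 5.14) in knockout, and missed the threshold (log2 fold change 0.22 ± 0.20 SE, edgeR adjusted p = 0.671). The cadherin gene Cdh5, under the count filter and not tested, was 0.806 to 2.76 CPM (median 0.997) in wild type, against 0 to 0.722 (median 0.502) in knockout, without overlap. The summed level of the endothelial list was 53.7 to 70.4 CPM in wild type and 87 to 99 CPM in knockout. Most of that sum was Vwf in both groups, so it mainly restates that gene, which Kdr and Cdh5 did not follow. Osteoblast markers had 1 tested gene and adipocyte markers 0, and no gene of either list was called. Of 7 tested neutrophil genes 1 fell, the collagenase gene Mmp8 (log2 fold change -0.85 ± 0.16 SE, edgeR adjusted p = 0.00114), all 7 had negative log2 fold changes (median -0.52), and their summed level was 178 to 267 CPM in wild type and 107 to 181 CPM in knockout. The part of neutrophil transcripts in other falls was not tested. Ppbp, a platelet chemokine, was 4.48 to 11.5 CPM (median 6.99) in wild type, against 1.11 to 4.97 (median 2.95) in knockout (log2 fold change -1.28 ± 0.31 SE, edgeR adjusted p = 0.0118), and was the 1 gene called of 4 erythroid and megakaryocyte markers.

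Knockout replicate 1 held more stromal RNA than the other knockout libraries in many of these genes, and its Col1a1 and Col1a2 values stayed under all wild-type ones. Without any single library 73 or 74 stromal genes were called lower. In replicates 1 to 3 alone 62 were lower, beside 2.21% of all genes, and the median was -2.80, and in replicates 4 to 6 alone 71, beside 4.09%, with a median of -3.29. With IL-4, 73 stromal genes were lower in knockout, beside 3.09% of all genes, in libraries that share culture numbers with the unstimulated ones. They were not all the same genes: 7 matricellular genes fell without IL-4 and 6 with it.

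Over the 320 tested genes of the macrophage lists 16 rose and 21 fell, which is 5.0% and 6.56%, beside 1.1% and 3.42% of all genes tested. These lists were chosen with earlier results of these data known and hold Mapkapk2, Wdfy1, Cdkn1c and Dcstamp. Their shares are therefore not a test against the background. The median of these lists was 0.02 on the log2 scale. Of 24 identity genes 4 fell and 1 rose (median -0.05). Lyz2, lysozyme, was 9778 to 13997 CPM (median 10592) in wild type, against 7087 to 9886 (median 8994) in knockout (log2 fold change -0.39 ± 0.10 SE, edgeR adjusted p = 0.015). C1qa, a chain of complement C1q, and Mertk, a receptor for dying cells, fell by 0.69 and 0.55 on the log2 scale. Itgam, the CD11b integrin chain, was 376 to 476 CPM (median 437) in wild type, against 479 to 585 (median 508) in knockout (log2 fold change 0.26 ± 0.06 SE, edgeR adjusted p = 0.00355). The groups did not overlap for Mertk and Itgam. Lyz2 lost its call without wild-type replicate 2 or knockout replicate 3. Its log2 fold change was -0.65 in replicates 1 to 3 and -0.09 in replicates 4 to 6 (adjusted p of the difference = 0.0498, edgeR).

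The leading rise was Wdfy1 (chromosome 1, 79702262 to 79776143 on mm10), a FYVE-domain adaptor of Toll-like receptor signalling, at 10.3 to 16.1 CPM (median 12.8) in wild type, against 45.6 to 56.3 (median 52.6) in knockout. No library overlapped (log2 fold change 2.00 ± 0.09 SE, edgeR adjusted p = 2.94e-14), and the log2 fold change was 2.08 in replicates 1 to 3 and 1.96 in replicates 4 to 6. Of the other tested Toll-like receptor and adaptor genes none was called. The fall with the smallest p-value of the named genes was 4930402H24Rik (chromosome 2, 130706200 to 130906406 on mm10), at 139 to 162 CPM (median 147) in wild type, against 43.8 to 49.5 (median 47) in knockout (log2 fold change -1.67 ± 0.05 SE, edgeR adjusted p = 1.85e-17). Wdfy1, 4930402H24Rik and Entpd4, a lysosomal nucleotide-degrading enzyme (log2 fold change -0.44 ± 0.13 SE, edgeR adjusted p = 0.0482), are all on a list of genes that have been reported to differ between the C57BL/6J and C57BL/6N substrains. Nnt, which is deleted in part in C57BL/6J, was 29.9 to 46.4 CPM (median 33.8) in wild type, against 24.5 to 34.6 (median 30.0) in knockout, and did not pass the test. On that list 1 gene rose and 2 fell of 7 tested, and whether substrain background differs between the groups was not tested. The call of Entpd4 was lost without any of 9 of the 12 single libraries, 3 of them wild type (replicates 1, 4 and 5) and all 6 knockout.

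Cdkn1c, the cyclin-dependent kinase inhibitor p57, is imprinted and expressed from the maternal copy. It was 18.9, 17.2, 11.6, 18.4, 12.7 and 15 CPM in wild-type and 50.6, 35.1, 37.9, 46.1, 38.7 and 33.6 CPM in knockout replicates 1 to 6. The groups were well separated (log2 fold change 1.37 ± 0.12 SE, edgeR adjusted p = 4.16e-09), and the log2 fold change was 1.41 in replicates 1 to 3 and 1.37 in replicates 4 to 6. Cd81, a tetraspanin, and Lsp1 lie on the same stretch of chromosome 7 and also rose. Cd81 was 29.1, 40.9, 38.4, 32.7, 35.2 and 32.1 CPM in wild type and 91.4, 101, 106, 49.4, 51.4 and 44.2 CPM in knockout, without overlap (log2 fold change 1.09 ± 0.27 SE, edgeR adjusted p = 0.0182). Lsp1 was 24.1, 20.7, 24.9, 34, 21.3 and 23 CPM in wild type and 60.2, 75.8, 66.5, 39.6, 36.1 and 30.4 CPM in knockout, where only replicate 6 fell below the highest wild-type library (log2 fold change 1.06 ± 0.19 SE, edgeR adjusted p = 6.29e-04). For both, knockout replicates 1 to 3 were higher than 4 to 6: the log2 fold change of Cd81 was 1.48 in replicates 1 to 3 and 0.55 in replicates 4 to 6 and that of Lsp1 1.56 in replicates 1 to 3 and 0.45 in replicates 4 to 6, and these differed (edgeR adjusted p = 0.0226 and 0.0241). Cd81 lost its call without knockout replicate 2 or 3.

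In the 2 Mb of chromosome 7 that hold these genes, 24 were tested, of which these 3 rose and 0 fell, beside 1.1% and 3.42% of all genes tested, and the median over the stretch was -0.04. The stretch was chosen because it holds these 3 genes, with earlier results known, so the count is not a test of the region. Other genes of the stretch were not called, with log2 fold changes of 0.69 for Tspan32, 0.14 for Tssc4 and -0.25 for Kcnq1ot1, the imprinted antisense transcript of the region. Around Mapkapk2 itself, 73 genes within 5 Mb were tested and edgeR called 0 in either direction, beside 4.52% of all genes tested (median log2 fold change 0.05).

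**Figure D3:**
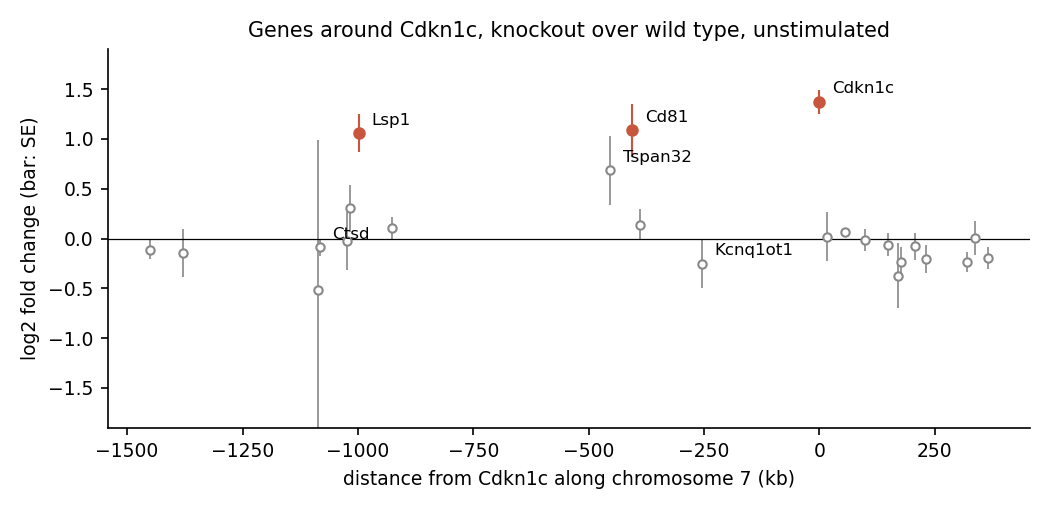
Each point is a tested gene of a stretch of 2 Mb of chromosome 7, with its distance from Cdkn1c (kb) on the x axis and its log2 fold change in unstimulated knockout over wild type on the y axis; bars are SE and red points are past an adjusted p of 0.05. The 3 red points are Lsp1, Cd81 and Cdkn1c, the median of all 24 genes is -0.04, and the bar of 1 gene runs past the axis.

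Another transcript, chosen after its values were seen, was near 0 in every knockout library. Gm42429 (chromosome 5, 44134393 to 44134950 on mm10), a transcript listed as still to be verified in GENCODE M21, had 502, 196, 325, 357, 211 and 209 counts in wild-type replicates 1 to 6. In knockout it had 10 counts in replicate 2 and 0 in the other 5 libraries, and with IL-4 the 6 wild-type libraries had 175 to 292 counts and the 6 knockout libraries 0, apart from 6 counts in replicate 5. Among all genes in the table it was the only 1 with at least 100 counts in all 12 wild-type libraries and at most 10 in all 12 knockout libraries, and 0 genes showed the reverse. The upper limit equals its own highest knockout count, so this search describes the transcript and is not a test. Gm42427, which starts 3.59 kb further on the same strand, was 228 to 449 CPM (median 350.4) in wild type, against 77.4 to 149 (median 115) in knockout (log2 fold change -1.58 ± 0.16 SE, edgeR adjusted p = 2.04e-07). Of 9 other genes tested within 1 Mb, 2 fell and 0 rose, beside 3.42% and 1.1% of all genes tested. The window is centred on a transcript chosen by its values, so this count is not a test of the region. Gm42427 was one, and the other was Cd38, an ectoenzyme that degrades NAD (log2 fold change -1.303 ± 0.37 SE, edgeR adjusted p = 0.0398). This region is on another chromosome than Mapkapk2.

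Dcstamp, the membrane protein that macrophages need to fuse into osteoclasts and giant cells, was 0.878, 3.77, 1.64, 1.94, 2.11 and 1.84 CPM in wild-type and 4.87, 3.5, 5.85, 8.58, 8.75 and 12.6 CPM in knockout replicates 1 to 6. Wild-type replicate 2 reached the knockout range and all other wild-type libraries were below it (log2 fold change 1.86 ± 0.34 SE, edgeR adjusted p = 8.65e-04). The rise passed the test in replicates 4 to 6 alone and not in 1 to 3 alone (log2 fold change 1.20 in replicates 1 to 3 and 2.33 in replicates 4 to 6; adjusted p of the difference = 0.327, edgeR). Over all libraries it was the only called gene of 11 tested on the fusion and osteoclast list, whose median log2 fold change was 0.08. In replicates 4 to 6 alone 4 of the 11 rose and 0 fell, beside 3.38% and 4.09% of all genes. In replicates 1 to 3 alone 1 rose and 1 fell, beside 1.16% and 2.21%. The difference between the sets passed the test for 3, Acp5, Ctsk and Itgb3, beside 1.81% of all genes. With IL-4 4 genes of the list were higher in knockout, beside 1.51%.

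Tnip3, an inhibitor of NF-kappa B signalling, was 20.4 to 25.1 CPM (median 21) in wild type, against 39.1 to 47.7 (median 42.6) in knockout, with no overlap (log2 fold change 0.98 ± 0.10 SE, edgeR adjusted p = 1.92e-07). St3gal5, the enzyme that makes the ganglioside GM3, was 12.5 to 20.4 CPM (median 17.6) in wild type, against 27.4 to 42.7 (median 30.7) in knockout (log2 fold change 0.96 ± 0.15 SE, edgeR adjusted p = 1.44e-04). Mfge8, a bridge between dying cells and phagocytes, was 265, 490.4, 207, 303, 307 and 276 CPM in wild-type and 474, 447, 505, 766, 714 and 787 CPM in knockout replicates. Wild-type replicate 2 overlapped the knockout range, and the rise (log2 fold change 1.00 ± 0.23 SE, edgeR adjusted p = 0.0109) was 0.59 in replicates 1 to 3 and 1.36 in replicates 4 to 6. On the uptake list Mfge8 and the receptor gene Lrp1 (log2 fold change 0.30 ± 0.08 SE, edgeR adjusted p = 0.0243), whose call was lost without wild-type replicate 1 or 2 or knockout replicate 1, rose while Mertk and C1qa fell, of 19 tested.

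Among the other leading rises were Cacna1b, a neuronal calcium channel subunit (log2 fold change 1.16), the transcription factor gene Tox2 (1.11), the villin relative Vill (1.03), the nuclear pore gene Nup210 (0.87), the Rap1 exchange factor gene Rapgef5 (0.86) and the intermediate filament gene Nes (0.84). Npy, neuropeptide Y, was 25.9 to 48.2 CPM (median 39.5) in wild type, against 51.9 to 86.2 (median 63.8) in knockout, and Dio2, which activates thyroid hormone, was 31.7 to 43.3 CPM (median 37.9) in wild type, against 54.9 to 66.7 (median 60.8) in knockout. Neither overlapped between the groups (log2 fold change 0.79 ± 0.16 SE, edgeR adjusted p = 0.0019 for Npy). L1cam, an adhesion molecule of nerve cells, rose by a log2 fold change of 0.71. The laminin gene Lama3 (log2 fold change 0.74) lost its call without any of 6 libraries (wild-type replicates 1, 5 and 6 and knockout replicates 1, 2 and 3), and Serpinb1c (0.85), of the serine protease inhibitors, without knockout replicate 3.

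**Figure D4:**
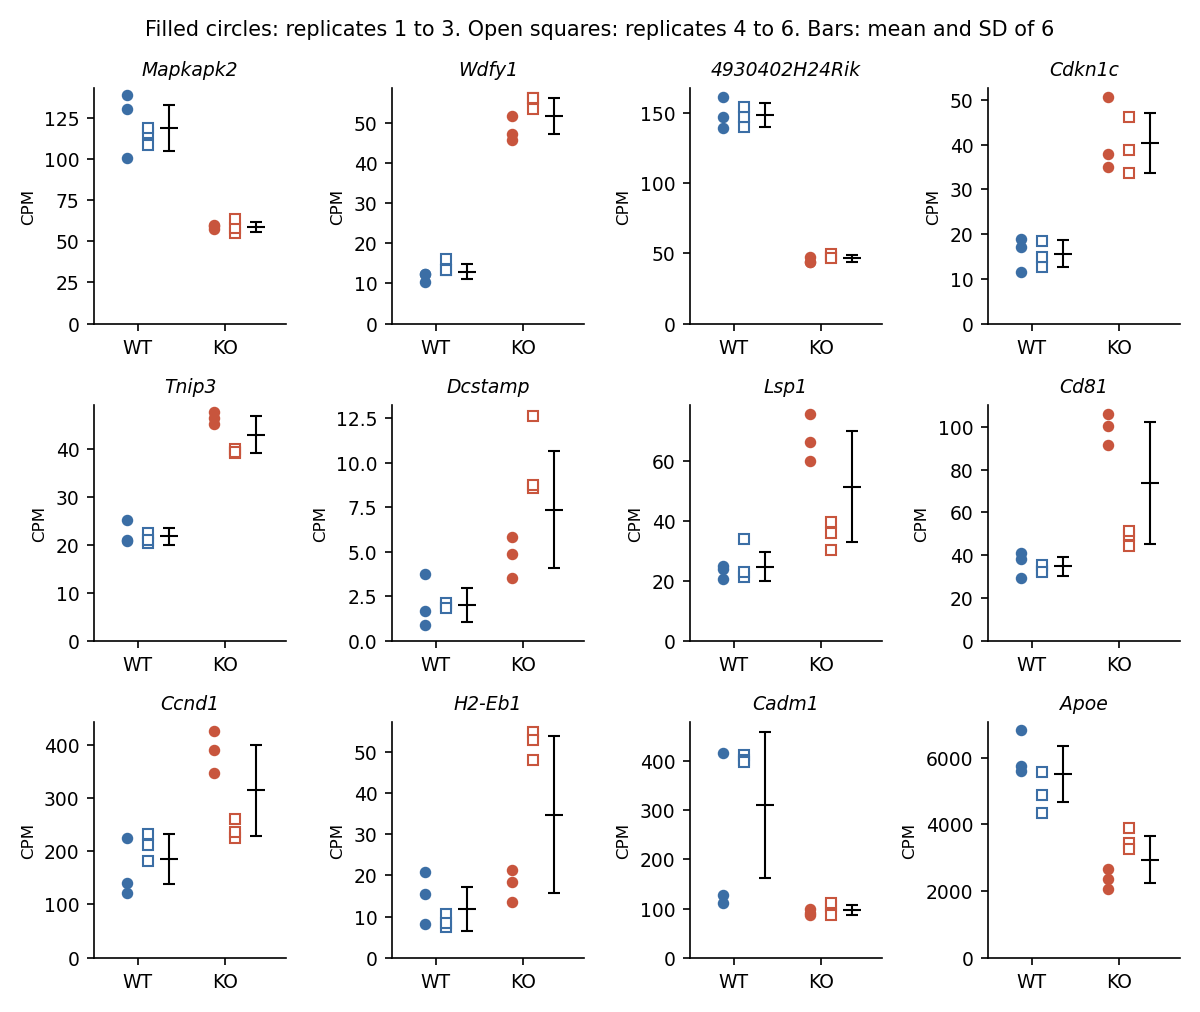
CPM of 12 genes in unstimulated wild-type (WT, blue) and knockout (KO, red) libraries; filled circles are replicates 1 to 3, open squares are replicates 4 to 6, and bars give the mean and SD of 6 libraries. Mapkapk2, Wdfy1, 4930402H24Rik, Cdkn1c and Tnip3 separate the genotypes in every library, while Lsp1, Cd81 and Ccnd1 are highest in knockout circles, H2-Eb1 in knockout squares, and Cadm1 is near the knockout level in 2 wild-type circles.

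Cytokine genes moved in both directions. Tnf, whose messenger RNA carries the best-known AU-rich element under MK2 control, was 7.6 to 9.91 CPM (median 8.43) in wild type, against 11 to 15.5 (median 13.7) in knockout, without overlap (log2 fold change 0.66 ± 0.11 SE, edgeR adjusted p = 1.50e-04), while with IL-4 its log2 fold change was 0.12 (edgeR adjusted p = 0.793). The test of the difference between these 2 effects gave an adjusted p of 1.00, and of 0.504 with the culture number as a block (edgeR). Ccl9, a chemokine that macrophages make at rest, was 252 to 363 CPM (median 348) in wild type, against 427 to 499 (median 461) in knockout (log2 fold change 0.47 ± 0.09 SE, edgeR adjusted p = 5.62e-04). Cxcl2, a neutrophil chemokine, rose from a mean of 0.82 to 1.81 CPM (log2 fold change 1.15 ± 0.31 SE, edgeR adjusted p = 0.0269), a call lost without any of 7 libraries, wild-type replicates 1, 3, 4 and 5 and knockout replicates 1, 4 and 5. Of 21 tested chemokines and cytokines these 3 rose and 2 fell, Ccl8 and Lif, beside 1.1% and 3.42% of all genes tested.

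Of 24 tested AU-rich transcripts 2 rose and 4 fell, beside 1.1% and 3.42% of all genes tested, and the list median was 0.07 on the log2 scale. Il1a, interleukin-1 alpha, was 4.61 to 9.81 CPM (median 6.47) in wild type, against 1.71 to 3.61 (median 3.04) in knockout, with no overlap (log2 fold change -1.26 ± 0.21 SE, edgeR adjusted p = 2.13e-04). Ptgs2, the inducible cyclooxygenase, and Lif, a cytokine of the IL-6 family, were at most 2.26 and 1.76 CPM in any library and fell by 2.21 and 2.69 on the log2 scale. Csf1, the gene for M-CSF itself, was 30.5 to 42.3 CPM (median 33) in wild type, against 4.79 to 12.7 (median 8.19) in knockout (log2 fold change -2.06 ± 0.19 SE, edgeR adjusted p = 2.99e-08). Stromal cells make M-CSF and LIF too, and the stromal lists, with a median of -3.19, fell in the same libraries. Which cells these transcripts came from was not tested. Ccl8, a monocyte chemokine, was 1.25 to 9.29 CPM (median 4.09) in wild type, against 0.34 to 1.2 (median 0.60) in knockout (log2 fold change -2.75 ± 0.43 SE, edgeR adjusted p = 9.41e-05). Of 23 tested immediate early genes none was called in either direction over all libraries (median 0.03). In replicates 4 to 6 alone 5 were higher and 1 lower, beside 3.38% and 4.09% of all genes. In replicates 1 to 3 alone 0 were called, and the difference between the sets passed the test for Egr2 and Dusp1. Vegfa, the endothelial growth factor, was 21.5 to 30.6 CPM (median 26.6) in wild type, against 18 to 24.6 (median 23.4) in knockout (log2 fold change -0.24 ± 0.10 SE, edgeR adjusted p = 0.231).

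Among genes that fell off the stromal lists, some were near 0 in knockout. Fat1, an atypical cadherin, was 10.1 to 18.6 CPM (median 14.8) in wild type, against 0.962 to 2.78 (median 1.1) in knockout (log2 fold change -3.40 ± 0.22 SE, edgeR adjusted p = 1.46e-11), and Ltbp2, a matrix protein of elastic fibres, was 7.18 to 8.76 CPM (median 8.11) in wild type, against 0.34 to 2.09 (median 0.711) in knockout (log2 fold change -3.22 ± 0.29 SE, edgeR adjusted p = 7.32e-09). Knockout replicate 1 was the highest of its group for both. The ubiquitin ligase gene Nedd4 was 19.4 to 27.2 CPM (median 23.3) in wild type, against 4.2 to 6.26 (median 5.17) in knockout (log2 fold change -2.20 ± 0.14 SE, edgeR adjusted p = 9.72e-12). Falls of log2 1.46 to 1.72 were seen in Mpp7, a scaffold of cell junctions, Tenm4, a teneurin, Neo1, a guidance receptor, and Epb41l3, a membrane skeleton protein. The 198 falling genes under 5 CPM had a median log2 fold change of -1.78, and which of them come from stromal cells was not tested.

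The 167 that stayed at 5 CPM or more in every knockout library fell by less, with a median log2 fold change of -0.46 and 14 by log2 1 or more. On the stromal lists 3 falling genes also stayed at that level, and which of the 167 come from stromal cells was not tested. Epas1, the hypoxia-inducible factor HIF-2 alpha, was 55.8, 33.2, 33.7, 77.3, 59.5 and 61.1 CPM in wild-type and 5.68, 7.8, 6.05, 18.1, 18.9 and 12.4 CPM in knockout replicates 1 to 6, with no overlap (log2 fold change -2.20 ± 0.34 SE, edgeR adjusted p = 1.36e-04). Cadm1, an adhesion molecule of the immunoglobulin family, was 128, 112, 416, 413, 402 and 398 CPM in wild type and 86.7, 91.7, 99, 105, 112 and 87.1 CPM in knockout. Wild-type replicates 1 and 2 were near the knockout level and the other 4 were between 398 and 416 CPM, and the fall over all libraries passed the test (log2 fold change -1.69 ± 0.38 SE, edgeR adjusted p = 0.00923). The log2 fold change was -1.23 in replicates 1 to 3 and -1.99 in replicates 4 to 6, and did not pass the test in replicates 1 to 3 alone (edgeR adjusted p = 0.488). Adam19, a membrane protease, was 66.9, 60.0, 49.4, 20.4, 16.4 and 17.3 CPM in wild type and 7.67 to 14.8 CPM in knockout, and its log2 fold change was -2.22 in replicates 1 to 3 and -1.05 in replicates 4 to 6 (adjusted p of the difference = 0.0209, edgeR).

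Further falls in well-expressed genes were chosen after their values were seen, from those 167. Apoe, the lipid carrier apolipoprotein E, was 4351 to 6815 CPM (median 5591) in wild type, against 2059.5 to 3875 (median 2951) in knockout, with no overlap (log2 fold change -0.90 ± 0.15 SE, edgeR adjusted p = 3.78e-04). Its log2 fold change was -1.34 in replicates 1 to 3 and -0.48 in replicates 4 to 6 (adjusted p of the difference = 0.0241, edgeR). Fcgr2b, the inhibitory receptor for IgG, was 141.9 to 349 CPM (median 178) in wild type, against 70.3 to 118 (median 104) in knockout (log2 fold change -1.04 ± 0.21 SE, edgeR adjusted p = 0.00342), and Mmp14, a membrane-bound metalloprotease, was 50.4 to 66.9 CPM (median 51.6) in wild type, against 14.2 to 41.6 (median 22.4) in knockout (log2 fold change -1.14 ± 0.24 SE, edgeR adjusted p = 0.00423). Cttn, which binds branched actin, was 16.4 to 24.5 CPM (median 19.6) in wild type, against 6.98 to 11.5 (median 8.18) in knockout (log2 fold change -1.17 ± 0.12 SE, edgeR adjusted p = 1.69e-07). Scd2, a fatty acid desaturase, fell by 1.00 and the lysosomal protease gene Ctsl by 0.62 on the log2 scale. Cmklr1, the chemerin receptor, was -1.74 in replicates 1 to 3 and -0.42 in replicates 4 to 6 on the log2 scale (adjusted p of the difference = 0.00907, edgeR), and lost its call without wild-type replicate 1 or knockout replicate 1 or 2.

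Of 23 tested genes of the cholesterol list 8 fell, 0 rose and 15 did not pass the test, beside 3.42% of all genes tested that fell. With IL-4 3 of the 23 fell. Without IL-4 the list median was -0.25 on the log2 scale. Cyp51, a sterol demethylase, was 43.1 to 71.9 CPM (median 60.1) in wild type, against 35.6 to 46.2 (median 42.5) in knockout (log2 fold change -0.47 ± 0.11 SE, edgeR adjusted p = 0.00896). Hmgcs1, at the start of the pathway, was 111 to 174 CPM (median 161) in wild type, against 98.3 to 135 (median 114) in knockout (log2 fold change -0.39 ± 0.11 SE, edgeR adjusted p = 0.0447), and lost its call without 9 of the 12 single libraries, all but wild-type replicates 2 and 3 and knockout replicate 6. Fdft1, squalene synthase, was lost without 8 of them (wild-type replicates 1, 4 and 5 and knockout replicates 1 to 5), and Mvd without 5 (wild-type replicates 1 and 5 and knockout replicates 1 to 3). Msmo1 and Sc5d lost theirs without 8 single libraries each: wild-type replicates 4 to 6 and knockout replicates 1 to 5 for Msmo1, wild-type replicates 1 and 4 to 6 and knockout replicates 1, 3, 4 and 6 for Sc5d.

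Of 27 tested interferon-stimulated genes 23 had negative log2 fold changes (median -0.26), and 2 fell, beside 3.42% of all genes tested. Zbp1, a sensor of left-handed nucleic acid, was 4.39 to 7.38 CPM (median 6.12) in wild type, against 2.71 to 4.64 (median 3.06) in knockout (log2 fold change -0.85 ± 0.17 SE, edgeR adjusted p = 0.00215). Oasl1, which limits interferon production, was 0.825 to 4.38 CPM (median 3.09) in wild type, against 0.50 to 1.27 (median 0.81) in knockout (log2 fold change -1.60 ± 0.44 SE, edgeR adjusted p = 0.0318), and its call was lost without any of 8 libraries (wild-type replicates 3 to 6 and knockout replicates 1 to 4). Ccr7, a chemokine receptor of migrating dendritic cells, rose from 0.621 ± 0.427 to 1.85 ± 0.811 CPM (SD, n = 6; log2 fold change 1.59 ± 0.41 SE, edgeR adjusted p = 0.0211), a call lost without wild-type replicate 1, 3 or 5 or knockout replicate 4 or 5. It was the 1 gene called of 4 tested dendritic cell markers. Lists of T and NK cells (1 tested), B cells (2), mast cells, basophils and eosinophils (3) and sex-linked genes (4) had 0 called. Scavenger receptors (12 tested) and MHC class I presentation (10 tested) had 0 genes called. On the glycolysis and hypoxia list 1 of 21 fell, Adm, adrenomedullin, at most 2.01 CPM in any library (log2 fold change -2.73 ± 0.47 SE, edgeR adjusted p = 3.18e-04). Integrin subunits had 2 rises of 13, Itgam and Itgb7 (log2 fold change 0.75), and tetraspanins 2 of 14, Cd81 and Tspan13 (0.44). Of 32 tested angiogenic factors 2 rose and 11 fell, beside 1.1% and 3.42% of all genes tested, and of those that fell Cxcl12, Ptx3, Thbs1, Cyr61, Ctgf and Mmp2 are among those also on stromal lists. Angptl2, an angiopoietin-like protein, was 46.7 to 66.4 CPM (median 54.1) in wild type, against 78.5 to 103 (median 90.2) in knockout, with no overlap (log2 fold change 0.71 ± 0.15 SE, edgeR adjusted p = 0.00366).

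Some gene groups went different ways in the 2 sets of replicates. None of 35 cell cycle genes was called over all libraries (median log2 fold change 0.34), but 9 were higher in replicates 1 to 3 alone, beside 1.16% of all genes (list median 0.81) and 7 lower in replicates 4 to 6 alone, beside 4.09% (list median -0.14). Their summed level in knockout was 2736 to 3141 CPM in replicates 1 to 3 and 1964 to 2135 CPM in 4 to 6. In wild type it was 1574 to 2297 CPM and 2079.6 to 2222 CPM. The difference of the genotype effect between the sets passed the test in 12 of the 35, beside 232 of all 12797 genes (1.81%), in an edgeR fit chosen after seeing the data. Cenpf, a kinetochore protein of dividing cells, was 26.7, 16.6, 25.6, 34.4, 33.3 and 29.2 CPM in wild-type and 40.7, 55.1, 56.5, 23.6, 25.9 and 25.1 CPM in knockout replicates. Its log2 fold change was 1.17 in replicates 1 to 3 and -0.37 in replicates 4 to 6 (adjusted p of the difference = 0.0169, edgeR). Of 10 CDK inhibitors and D-type cyclins Cdkn1c and Ccnd1 rose and 0 fell. Ccnd1, cyclin D1, rose over all libraries (log2 fold change 0.76 ± 0.19 SE, edgeR adjusted p = 0.0214) and was 1.28 in replicates 1 to 3 and 0.21 in replicates 4 to 6, and lost its call without wild-type replicate 1 or 2 or knockout replicate 2 or 3.

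The genes of MHC class II presentation showed the reverse order. Of 8 tested, 1 rose over all libraries, H2-Eb1, with a list median of 1.00. In replicates 4 to 6 alone 5 rose, beside 3.38% of all genes (list median 1.92), and in 1 to 3 alone 0 (median -0.16). H2-Eb1, a class II beta chain, was 15.4, 20.9, 8.29, 10.7, 7.39 and 8.41 CPM in wild-type and 21.2, 13.6, 18.4, 54.8, 52.9 and 48.1 CPM in knockout replicates 1 to 6. Knockout replicates 4 to 6 were above all wild-type libraries, replicate 1 lay just above the highest of them, and replicates 2 and 3 lay within their range (log2 fold change 1.58 ± 0.43 SE, edgeR adjusted p = 0.0383). Its call was lost without any of 8 libraries: wild-type replicates 1, 3, 4, 5 and 6 and knockout replicates 4, 5 and 6. The difference between the sets passed the test in 5 of 8 genes, H2-Aa, H2-Ab1, H2-Eb1, the invariant chain gene Cd74 and the class II transactivator gene Ciita, each higher in replicates 4 to 6. For Ciita the log2 fold change was -0.29 in replicates 1 to 3 and 1.81 in replicates 4 to 6 (adjusted p of the difference = 0.0247, edgeR). The cholesterol list had 0 genes for which the sets differed. The labels do not say what distinguishes the sets beyond their library numbers.

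**Figure D5:**
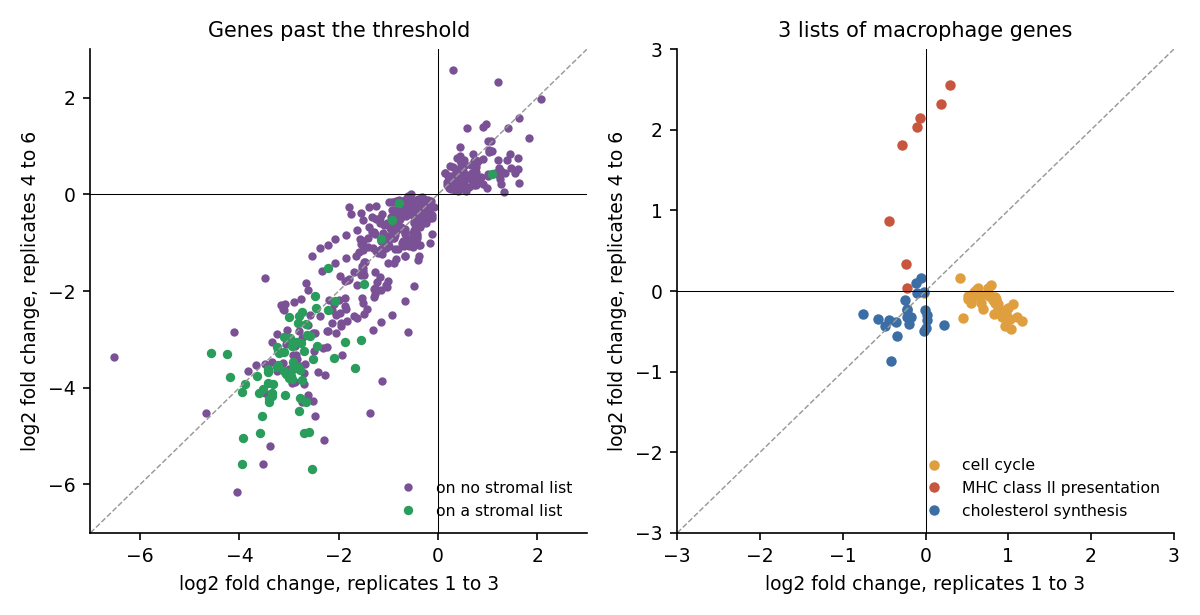
Each point is a gene, with its log2 fold change in knockout over wild type in replicates 1 to 3 (x axis) and in replicates 4 to 6 (y axis); the dashed line marks equal values. The left panel shows 564 genes past the threshold over all libraries, 3 of them outside the plotted range, and most share a sign; the right panel shows cell cycle genes below 0 or near it on the y axis but above 0 on the x axis, and 5 MHC class II genes near 2 on the y axis and near 0 on the x axis.

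With IL-4, 588 genes differed between the genotypes (4.59%, 1.51% higher and 3.09% lower), in other libraries that share culture numbers with the unstimulated ones. Of the 141 genes higher without IL-4, 71 were also higher with it (50.4% of these and 36.8% of the 193 higher with IL-4), and of the 438 lower, 303 (69.2%, and 76.7% of the 395 lower with IL-4). The test of a difference between the 2 genotype effects called 0 genes by edgeR, with 390 at an unadjusted p below 0.05. That fit holds no term for the culture number, which 1 unstimulated and 1 IL-4 library share in each of 12 cases. With the culture number as a block, a fit chosen after seeing the data, edgeR called 2 genes (0.0156%), with 664 at an unadjusted p below 0.05. The labels do not say whether libraries of 1 number come from the same culture. One of the 2 was Csf1, at -0.95 (edgeR adjusted p = 0.00102) with IL-4 and -2.06 without it. The difference was 1.11 ± 0.12 SE with the block (edgeR adjusted p = 7.00e-04) and did not pass without it (edgeR adjusted p = 0.494). The other was Lrrc32, named after its values were seen, which encodes a cell-surface protein that binds latent TGF-beta, at -0.22 without IL-4 and 0.94 (edgeR adjusted p = 6.95e-05) with it (edgeR adjusted p of the difference = 0.0206 with the block and 0.406 without). Wdfy1 had a log2 fold change of 2.21 (edgeR adjusted p = 3.84e-15) with IL-4, Cdkn1c 1.46 (edgeR adjusted p = 1.97e-09), 4930402H24Rik -1.61 (edgeR adjusted p = 4.47e-17) and Dcstamp 1.57 (edgeR adjusted p = 0.00155). Fn1 was -0.89 (edgeR adjusted p = 0.0728) with IL-4, and its difference did not pass in either fit.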

How the data were processed

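RNA was sequenced from 24 libraries of bone marrow macrophages. The deposited values are RSEM's expected counts per gene, already rounded to whole numbers by the authors, and a GETMM signal per gene that the authors scaled by gene length and library. Per the submitters' processing notes, the genome build was mm10 and the tools included Bowtie2 2.3.4.1 and RSEM 1.3.0. The notes also list CASAVA 2.8.0 and edgeR. Whether counting used strand is not stated there, so overlapping antisense genes cannot be separated. Each deposited column matched 1 sample by the name in that sample's description.

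The counts of all 24 libraries were fitted with edgeR 4.0.16 (R 4.3.3) as 4 group means, with TMM scaling. Genes were kept by filterByExpr with a minimum count of 10. The robust quasi-likelihood test was adjusted by Benjamini-Hochberg over the 12797 genes tested, at a threshold of 0.05. SE is the absolute log2 fold change over the root of F. CPM values use TMM library sizes. The procedure was run on simulated counts with planted changes and independent libraries. Those counts held no sets of replicates, shared cultures or outlying libraries, so the run cannot show how these affect the calls. Alternatives were RLE size factors, DESeq2 1.42.0, other count filters, the 12 unstimulated libraries alone, a library-number term, limma 3.58.1 on log2(GETMM + 1), a replicate block, either set of replicates alone and each library left out. The test of a difference between the 2 sets of replicates, and the IL-4 comparison with the culture number as a block, were added after seeing the data.

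Genes named are Mapkapk2, Wdfy1, 4930402H24Rik, Cdkn1c and Dcstamp. Called genes with average log2 CPM of at least 2, predicted genes left out, gave the 12 largest falls on and the 12 off the stromal lists. They also gave the 20 largest rises and the 10 rises with the smallest p. Up to 4 called members of each list were added, with Cxcl12, Vegfa, Mapkapk3, Zfp36, Tnf, Lsp1, Hspb1 and Nnt, and the neighbours of Mapkapk2 and Cdkn1c. Other genes given with values were chosen after those were seen. Members and lists were chosen with earlier results of these data known. Gene positions are from GENCODE M21 (mm10). Some genes are not reported here.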

Additional observations from a re-analysis of the deposited data

Results flagged for a closer look

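Some libraries lay far from the other 5 of their group, by the gap to the nearest library over the whole range of the group (Dixon's 95% critical value for 6 samples). Over the 95 genes with values named, 16 of 190 groups did so, and chance alone gives about 1 in 20. Knockout replicate 1 was the highest of its group in 8 genes, of which Gpx8 and Fbln2, stromal list members, are named here for this reason. For Col1a2 it was 4.76 CPM, with the other knockout libraries at 0.842 to 1.87 CPM. For Tnc it was 2.9 CPM, with the other knockout libraries at 0.706 to 1.2 CPM. For Col1a1 it was 3.94 CPM, with the other knockout libraries at 0.504 to 1.44 CPM. For Fat1 it was 2.78 CPM, with the other knockout libraries at 0.962 to 1.36 CPM. For Ltbp2 it was 2.09 CPM, with the other knockout libraries at 0.34 to 0.908 CPM. For Fbln2 it was 1.62 CPM, with the other knockout libraries at 0.2 to 0.542 CPM. For Gpx8 it was 0.464 CPM, with the other knockout libraries at 0 to 0.101 CPM. For Grem1 it was 4.99 CPM, with the other knockout libraries at 0.935 to 2.08 CPM. 

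The others were spread over several libraries. Lsp1 was highest in wild-type replicate 4, at 33.98 CPM against 20.7 to 24.9 CPM in the rest of its group. Mfge8 was highest in wild-type replicate 2, at 490.4 CPM against 207 to 307 CPM in the rest of its group. Vwf was lowest in knockout replicate 2, at 80.8 CPM against 88.6 to 92.1 CPM in the rest of its group. Col6a2 was lowest in wild-type replicate 4, at 3.11 CPM against 4.89 to 5.89 CPM in the rest of its group. Lama4 was highest in wild-type replicate 1, at 3.64 CPM against 2.33 to 2.74 CPM in the rest of its group. Thbs2 was highest in wild-type replicate 5, at 4.01 CPM against 2.01 to 2.71 CPM in the rest of its group. Myl9 was highest in wild-type replicate 1, at 5.15 CPM against 3.45 to 4.01 CPM in the rest of its group. Nnt was highest in wild-type replicate 5, at 46.4 CPM against 29.9 to 34.8 CPM in the rest of its group.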

How the results depend on the processing

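Over all genes the count that rose, 141, was 371 with a library-number term, 271 without the 3 libraries numbered apart, 432 in replicates 4 to 6 alone and 236 with DESeq2. The count that fell, 438, was 673 with that term and 284 in replicates 1 to 3 alone. With the 12 unstimulated libraries fitted alone, 119 genes rose and 316 fell, 67 of them stromal. That fit gave 15 rises and 16 falls on the macrophage lists. The cause was not tested. On the macrophage lists the rises, 16, became 27 with the term and 33 in replicates 4 to 6 alone, and the falls, 21, became 35 and 44. Leaving out single libraries gave 97 to 165 rises, 347 to 455 falls, and 73 to 74 stromal falls. On the macrophage lists it gave 13 to 17 rises and 14 to 21 falls, and Mapkapk2 ranged from -1.06 to -0.96 on the log2 scale. The 97 rises came without knockout replicate 1 or 3. With the replicate block 184 genes rose and 482 fell, 73 of them stromal. Libraries with the same number did not deviate together (r from -0.296 to 0.172), so the numbers were not taken to pair the samples. The difference of the genotype effect with and without IL-4 was called in 0 genes, and in 2 with the culture number as a block. Libraries of 1 culture number correlated at -0.045 to 0.354 in their deviations. For culture numbers 1, 2, 5, 7, 9, 10 and 11 the best-correlated IL-4 library of that genotype had the same number. For the rest it did not. Without wild-type replicates 1 and 4, an alternative chosen after seeing the data, 131 genes rose and 359 fell, 73 of them stromal, with 11 rises and 15 falls on the macrophage lists. Mapkapk3, not called, turned to -0.087 in replicates 1 to 3 alone and to -0.0035 without wild-type replicate 5, and reached 0.056 without wild-type replicate 1. Zfp36, not called, turned to 0.0088 in replicates 4 to 6 alone. Over 94 named genes, direction and side of the threshold held in 1061 of 1128 values with a library left out and in 1050 of 1123 under the other alternatives. Genes under about 1 CPM in knockout rest on few counts, which limits the precision of their folds.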

Other observations

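Ddah1, an enzyme that degrades the nitric oxide synthase inhibitor dimethylarginine, was chosen after its values were seen. It had 105 counts over the 6 unstimulated wild-type libraries and 0 over the 6 knockout ones, which is at least 35.2-fold lower, taking 3 counts over the group as the floor. With IL-4 the knockout libraries held 1, 2, 4, 1, 0 and 2 counts and the wild-type ones 7 to 19.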
